A study of Mus musculus with 25 samples.

Results

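The RNAs of 9 transcription factors of the hepatocyte were followed in mouse sperm samples from the cauda epididymis. They are the forkhead factors Foxa1, Foxa2 and Foxa3, the nuclear receptors Hnf4a, Nr1i2, Nr1i3 and Nr1h4, the membrane-bound factor Creb3l3 and the cut-homeodomain factor Onecut1. They were chosen by gene symbol from a table of 24358 genes, and all 9 had a valid estimate in each of 5 conditions. The question was which of them follow the liver secretory genes, a list of 46 genes for plasma proteins such as albumin, fibrinogen and the apolipoproteins, across the conditions.

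Each condition held 5 libraries of sperm RNA from mice aged 14 weeks. The C57 vehicle group (C57.CTL.F1) and the C57 DEHP group (C57.D300.F1) were first-generation C57BL/6J males whose dams had been given corn oil or the plasticizer DEHP, 300 mg/kg per day by mouth, over embryonic days 9 to 19. The FVB vehicle group (FVB.CTL.F1) and the FVB DEHP group (FVB.D300.F1) were their counterparts in the FVB/N strain. The C57 second generation (C57.D300.F2) descended from the exposed C57BL/6J lineage, and no vehicle group of that generation was analysed here. All-RNA-seq, in which RNA ends are made ligatable so that RNAs of every type are read, gave 1 estimated count per gene and condition, and the sums ranged from 6921690 to 8602900 counts. Only the 10 libraries of the first-generation C57BL/6J groups carry a mark of re-analysis in the labels, so in any comparison of these groups with the other 15 libraries the set of libraries cannot be told apart from generation or strain. Without values of single libraries no difference has a replicate check. The SD given with a count is that of Cuffdiff's model, not a spread measured between the 5 libraries. In such bulk samples, fewer cells of a type and less RNA per cell cannot be told apart. Where 5 counts follow each other without group names, they are in the order C57 vehicle, C57 DEHP, C57 second generation, FVB vehicle and FVB DEHP.

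Hepatocyte identity rests on a network of factors that bind together at the same liver enhancers. FOXA proteins open closed chromatin for other factors and also act in the lung, gut, prostate and other epithelia, often beside steroid receptors. HNF4A drives many plasma protein genes, and ONECUT1 acts in liver and pancreas development. CREB3L3, a factor of the endoplasmic reticulum membrane, is freed by cleavage to switch on fasting and acute phase genes. The receptors encoded by Nr1i2 (PXR), Nr1i3 (CAR) and Nr1h4 (FXR) sense foreign compounds and bile acids.

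Upstream sequences of 4 of the factors are shown because Foxa1 differed from the other 3 in its direction across the conditions. They run 5′ to 3′ from 200 to 11 bases before the RefSeq transcript start (GRCm38.p6), and capitals mark a forkhead motif (TGTTTAC or TGTTTGC) on either strand.
Foxa1, chr12:57546122-57546311, minus strand: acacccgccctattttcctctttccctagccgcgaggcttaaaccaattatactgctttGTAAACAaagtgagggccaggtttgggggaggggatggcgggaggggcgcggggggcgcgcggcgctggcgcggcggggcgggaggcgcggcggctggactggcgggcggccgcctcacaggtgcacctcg
Foxa3, chr7:19023550-19023739, minus strand: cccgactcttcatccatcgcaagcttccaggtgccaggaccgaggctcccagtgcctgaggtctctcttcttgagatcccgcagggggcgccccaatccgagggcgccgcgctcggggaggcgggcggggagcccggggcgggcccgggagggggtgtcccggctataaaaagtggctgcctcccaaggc
Hnf4a, chr2:163546955-163547144, plus strand: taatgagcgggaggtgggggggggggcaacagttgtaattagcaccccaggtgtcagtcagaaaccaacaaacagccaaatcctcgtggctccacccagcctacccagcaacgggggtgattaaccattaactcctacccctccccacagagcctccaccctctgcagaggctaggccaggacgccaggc
Creb3l3, chr10:81098883-81099072, minus strand: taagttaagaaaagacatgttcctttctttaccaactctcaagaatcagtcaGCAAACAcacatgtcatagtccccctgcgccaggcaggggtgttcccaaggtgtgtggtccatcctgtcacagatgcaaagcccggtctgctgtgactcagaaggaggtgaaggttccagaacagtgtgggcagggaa
Over the 250 bases before each start, the forkhead letters were found once for Foxa1 and Creb3l3, 141 and 148 bases before the start, and at 2 positions for Nr1i2. They occur in 7.29% of 32851 RefSeq promoters of the same length. Creb3l3 and Hnf4a each had a further window at another start, not printed, in which these letters were not found. The printed Foxa3 and Hnf4a windows held no such letters, and the HNF4 letters CAAAGTCCA, present in 0.384% of all promoters, were in none of the 13 windows of the 9 factors. A match describes the letters of the reference only and shows no binding.

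Among the forkhead genes, Foxa1 and Foxa3 went in opposite directions, and Foxa2 lay between them. Foxa1 (chr12:57540628-57546916, minus strand, GRCm38) had 115 ± 30.6 counts in C57 vehicle, 168 ± 45.9 in C57 DEHP, 219 ± 53.1 in the C57 second generation, 239 ± 58.5 in FVB vehicle and 451 ± 121 in FVB DEHP (± SD under Cuffdiff's model). Its lowest level was in C57 vehicle and its highest in FVB DEHP, where it was 1.89-fold above FVB vehicle. That step of 212 counts exceeded its model SD of 135 counts, while the other neighbouring conditions in the order differed by less than their model SD. Foxa1 was thus 2.08-fold higher in FVB vehicle than in C57 vehicle and 2.68-fold higher in FVB DEHP than in C57 DEHP, both beyond the model SD and below 2 log2 units (4-fold), the threshold used here to call a difference.

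Foxa3 (chr7:19013284-19023538, minus strand), the FOXA factor known for its role in hepatocyte glucose and lipid metabolism, had 88.2 ± 28.1 counts in C57 vehicle and 59.7 ± 20.8 in C57 DEHP. It had 3.41 ± 2.65 counts in the C57 second generation, 2.86 ± 2.45 in FVB vehicle and 1.60 ± 1.73 in FVB DEHP. The last 3 conditions lay at or near the limit of detection of 3 counts, which covers counting error only, and could not be ordered. Foxa2 (chr2:148042877-148046969, minus strand), which acts in liver, pancreas and gut endoderm, had 59.1 ± 23.5, 43.0 ± 14.4, 34.3 ± 11.7, 16.7 ± 7.54 and 22.1 ± 8.83 counts in the 5 groups. No neighbouring conditions in the order of Foxa2 differed beyond their model SD, whereas FVB vehicle lay 3.55-fold below C57 vehicle and 2.06-fold below the C57 second generation, both beyond it. Foxa2 therefore stayed detectable in the C57 second generation and FVB/N, where Foxa3 was hardly counted.

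On the scale of counts per kb of exon, on which genes can be compared, the make-up of the FOXA family shifted accordingly. In C57 vehicle Foxa3 held 42.1% of the summed level of the 3 genes, Foxa1 33.6% and Foxa2 24.3%. Foxa1 held 51.6% in C57 DEHP, 80.3% in the C57 second generation, 89.5% in FVB vehicle and 93.1% in FVB DEHP. The share of Foxa3 was 29.9% in C57 DEHP and at most 2.04% in the other 3 conditions, and that of Foxa2 ranged from 6.41% to 18.5% outside C57 vehicle. In FVB DEHP the sum itself did not follow Foxa3, since Foxa1 alone reached 136 counts per kb there. Among the other conditions the sum was higher in the C57BL/6J first generation, as Foxa3 was.

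**Figure D1:**
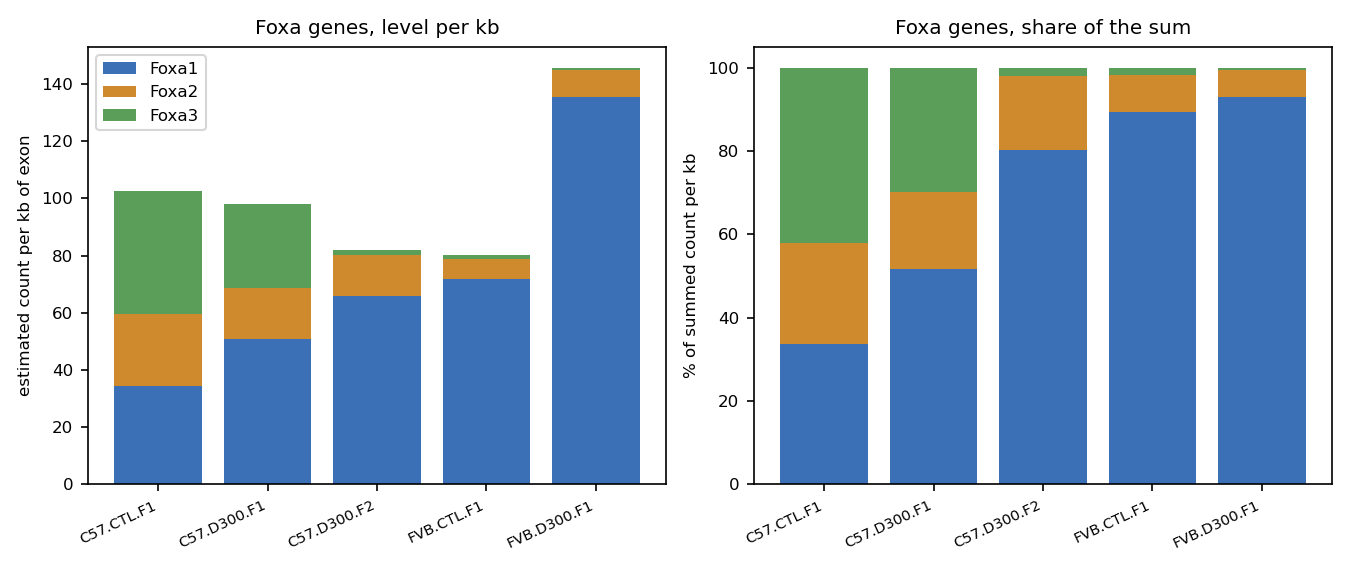
Foxa1, Foxa2 and Foxa3 in the 5 conditions, as stacked counts per kb of exon (left panel) and as percent of their sum (right panel). Foxa1 takes 33.6% of the sum in C57 vehicle and 93.1% in FVB DEHP, while the Foxa3 segment nearly disappears in the C57 second generation and both FVB/N conditions.

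Hnf4a and Creb3l3 were the most abundant of the 9 in the C57BL/6J first generation. Hnf4a (chr2:163506808-163572910, plus strand) had 555 ± 195 counts in C57 vehicle and 478 ± 167 in C57 DEHP, against 28.7 ± 10.8 in the C57 second generation, 18.4 ± 7.28 in FVB vehicle and 17.4 ± 7.14 in FVB DEHP. Creb3l3 (chr10:81084324-81098874, minus strand) had 636 ± 218 and 562 ± 183 counts in the former pair, against 34.1 ± 12, 20.3 ± 8.37 and 16.1 ± 6.91 in the latter 3. Both genes stood high in the C57BL/6J first generation and low elsewhere, with 1 gap in the order beyond the model SD, that between C57 DEHP and the C57 second generation. Hnf4a was 19.3-fold and Creb3l3 18.6-fold lower in the C57 second generation than in C57 vehicle, and 30.2-fold and 31.3-fold lower in FVB vehicle than in C57 vehicle. Hnf4aos, an RNA antisense to Hnf4a, had 7.50, 9.59, 1.77, 1.21 and 1.29 counts in the same order of conditions, and the reads were mapped with a strand option.

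The nuclear receptors Nr1h4 and Nr1i2 showed the same split at lower counts. Nr1h4 (chr10:89454234-89533585, minus strand), the bile acid receptor, had 193 ± 56.6 counts in C57 vehicle, 222 ± 65.0 in C57 DEHP, 10.8 ± 5.75 in the C57 second generation, 8.67 ± 4.72 in FVB vehicle and 4.13 ± 2.91 in FVB DEHP. Nr1i2 (chr16:38248323-38294824, minus strand), the xenobiotic sensor PXR, had 118 ± 40.3, 71.6 ± 23.8, 7.16 ± 3.89, 4.36 ± 3.00 and 1.82 ± 2.27 counts. For both, the C57BL/6J first generation was separated from the other 3 conditions by more than the model SD, and among these 3 no neighbours in the order were. The step in Nr1i2 from C57 vehicle to C57 DEHP, 1.65-fold, equalled its model SD almost exactly (46.9 against 46.8 counts).

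Nr1i3 (chr1:171213970-171220701, plus strand), the receptor CAR, was listed at 57.3, 93.1, 6.83, 1.18 and 1.65 counts. Its model SD was 1081 counts in C57 vehicle and 728 in C57 DEHP, so that none of its differences exceeded the model SD. Only 2 of 16459 genes with at least 10 counts had a coefficient of variation under the model as high as its 18.9 in C57 vehicle, where the median gene had 0.276. Tomm40l, which overlaps Nr1i3 on the opposite strand, had 75.4, 86.1, 43.8, 43.4 and 44.8 counts, and its part in the estimate was not tested. Onecut1 (chr9:74861921-74891781, plus strand) had 44.3 ± 20.4, 21.3 ± 8.72, 4.95 ± 3.16, 2.25 ± 2.00 and 3.42 ± 2.65 counts. It was the lowest of the 9 in C57 vehicle, by count and per kb, and 2 steps of its order exceeded the model SD, from C57 vehicle to C57 DEHP and from there to the C57 second generation.

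Ranked per kb of exon, the 9 factors changed places between the conditions. In C57 vehicle Creb3l3 led with 211 counts per kb, followed by Hnf4a with 115, Nr1h4 with 83.7, Nr1i2 with 46.4, Foxa3 with 43.3 and Foxa1 with 34.5. In FVB DEHP Foxa1 led with 136 counts per kb, followed by Foxa2 with 9.34, Creb3l3 with 5.35 and Hnf4a with 3.61. The factor that ranked sixth per kb in unexposed C57BL/6J sperm samples thus ranked first in exposed FVB/N.

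**Figure D2:**
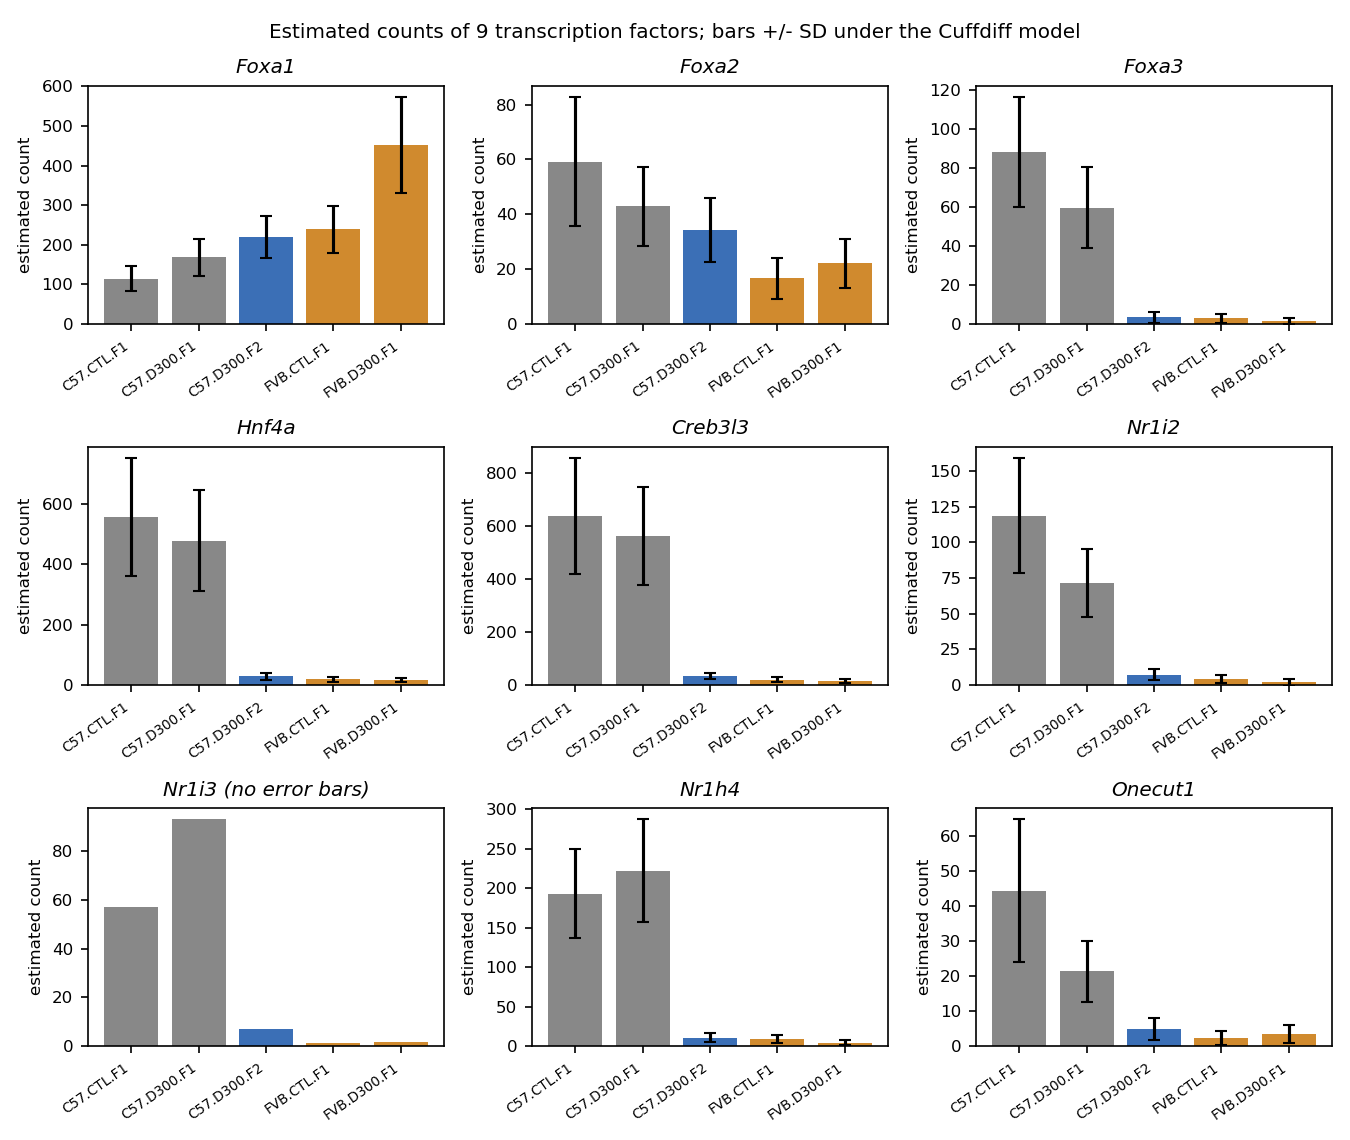
Estimated counts (linear axes from 0) of the 9 factors in the 5 conditions, 1 bar per condition over 5 libraries. Error bars are ± 1 SD under Cuffdiff's model and are cut at 0. Nr1i3 has none because its SD of 1081 counts in C57 vehicle would not fit the axis. The panels of 7 factors are high in the 2 grey bars of the C57BL/6J first generation and low in the others, Foxa1 runs the other way, and Foxa2 declines by smaller steps.

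In numbers of calls, 7 of the 9 factors were lower by at least 2 log2 units in the C57 second generation than in C57 vehicle, on the log2(count + 1) scale and among genes that reached 10 counts in either condition, where 3.61% of all genes tested were lower. Against C57 DEHP, 6 of 9 were lower in the C57 second generation (3.3% of all genes), the difference of Onecut1 being -1.91. That call turned on the handling of low counts, since Onecut1 had -2.08 when 0.1 was added and -2.10 when lower values were raised to 3 counts, either of which made it 7 of 9. In FVB vehicle against C57 vehicle, 7 of 9 were lower (8.88% of all genes), and in FVB DEHP against C57 DEHP the same 7 (7.67%). Foxa1 and Foxa2 were called in none of these. Requiring the difference also to exceed the model SD removed Nr1i3 from each count.

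Between DEHP and vehicle, few genes of any kind were called within either strain. None of the factors compared was called, which does not set them apart from other genes. Of the 9 factors, 0 differed by 2 log2 units between C57 DEHP and C57 vehicle, where 0.291% of all genes did, and the ratios ran from -1.02 for Onecut1 to 0.69 for Nr1i3. Between FVB DEHP and FVB vehicle, where 0.68% of all genes differed, 4 of the factors had enough counts to compare, with log2 ratios of 0.92 for Foxa1, 0.39 for Foxa2, -0.08 for Hnf4a and -0.31 for Creb3l3. Between FVB vehicle and the C57 second generation, neither of which is marked as re-analysed, 0 of the 5 factors compared differed, against 3.21% of all genes. The difference between the responses of both strains to DEHP passed 2 log2 units in 1.22% of the genes that reached 10 counts in any of the 4 first-generation groups. All 9 factors reached that count, and it did so in none of them, the farthest being Onecut1 with 1.47 and Nr1h4 with -1.12. Both of these, and Foxa3, Nr1i2 and Nr1i3, had fewer than 10 counts in either FVB/N group, so their differences rest on low counts. Among the 4 factors with enough counts in each strain, the farthest was Foxa2 with 0.84.

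The liver secretory genes were the yardstick for what follows. They summed to 377691 counts in C57 vehicle, 323123 in C57 DEHP, 12912 in the C57 second generation, 6602 in FVB vehicle and 5755 in FVB DEHP. All 46 were lower by 2 log2 units in the C57 second generation than in C57 vehicle, with a median of -5.12 beside -0.04 for all genes, and 45 were lower in FVB vehicle than in C57 vehicle, with a median of -6.94 beside -0.03. Fetub, encoding the protease inhibitor fetuin-B, was the exception, with a log2 ratio of -1.40. Since 20 of the 46 are among the RNAs that the study chose on these samples, the other 26 were also taken alone. Their medians were -4.96 and -6.26 in the same comparisons. These 26 were themselves chosen with earlier results of these data known.

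Hnf4a and Creb3l3 gave the same call as the secretory median, lower or not different, in 7 of 7 comparisons between conditions. Foxa3, Nr1i2 and Nr1i3 did so in the 5 in which they had enough counts, Nr1h4 in 6 of 6 and Onecut1 in 4 of 5, though in 5 of 5 under either of those settings and in 2 of 5 with 10 counts added. Foxa1 and Foxa2 did so in 3 of 7, namely in the comparisons where neither they nor the secretory genes differed. Any gene called in none of the 7 would score the same 3. The 7 comparisons reuse 5 values per gene and are not independent, and the share of all genes with 7 of 7 was not computed. Each comparison in which Foxa3, Nr1i2 and Nr1i3 had enough counts included a C57BL/6J first-generation group, where they were high. The root mean square difference between the log2 ratios of a factor and of the secretory median, over the 4 ratios to C57 vehicle, set the factors in a like order. It was 1.58 for Creb3l3, 1.70 for Hnf4a, 1.72 for Nr1i2 and for Foxa3, 1.81 for Nr1h4, 2.22 for Nr1i3, 2.81 for Onecut1, 4.53 for Foxa2 and 6.88 for Foxa1. The places of the nearest factors depended on the added count, since Foxa3 and Nr1i2 lay at or near the limit of detection in FVB/N. With 0.1 added, Foxa3 (1.44) and Nr1i2 (1.51) were nearer than Creb3l3 (1.61), and with 10 added Foxa3 was at 2.63, while Foxa2 and Foxa1 were the farthest with either. The secretory genes themselves had a median of 0.72, and 13568 other genes a median of 5.66. Of those other genes 1.20% lay closer to the secretory median than Creb3l3, 1.29% closer than Foxa3, 11.0% closer than Foxa2 and 97.4% closer than Foxa1.

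**Figure D3:**
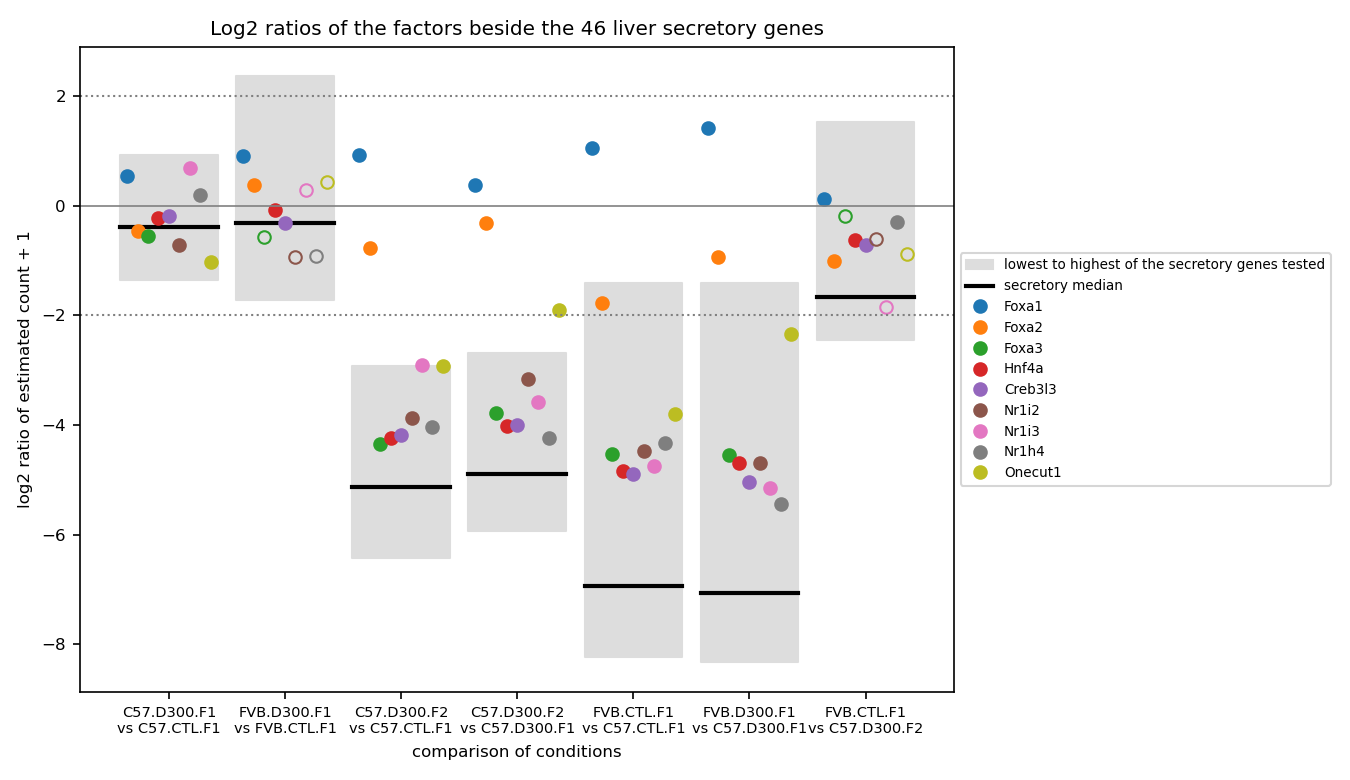
Log2 ratios of count + 1 for the 9 factors (coloured points, open where neither condition had 10 counts) in 7 comparisons of conditions. Grey boxes span the lowest to the highest of the secretory genes tested and black lines their medians, and dotted lines mark 2 log2 units. Foxa1 lies above the box in the 4 comparisons in which the secretory genes are low, while Hnf4a and Creb3l3 lie inside it in all 7 and above the median in those 4.

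The factors that followed the secretory genes did so with a smaller difference. Between the C57 second generation and C57 vehicle, Hnf4a had a log2 ratio of -4.23 and Creb3l3 of -4.18, each less negative than those of 40 of the 46 secretory genes. In FVB vehicle against C57 vehicle their ratios of -4.84 and -4.90 were less negative than those of 41 of 46. The gap to the median, 0.90 and 0.94 log2 units in the former comparison, was 2.10 and 2.04 in the latter. All 20 secretory genes that the study chose on these samples had ratios below those of both factors in either comparison. For the other 26 alone the medians were -4.96 and -6.26, so that the gaps were smaller. The root mean square difference over the 4 ratios to C57 vehicle was then 1.11 for Hnf4a and 1.00 for Creb3l3. Between the C57 second generation and FVB vehicle themselves, Hnf4a was 1.56-fold and Creb3l3 1.68-fold higher in the C57 second generation, within the model SD, where the median secretory gene was 3.21-fold higher. With 10 counts added in place of 1, the secretory medians became -6.19 in FVB vehicle against C57 vehicle and -6.06 in FVB DEHP against C57 DEHP, beside -4.31 and -4.15 for Hnf4a.

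Of the lists compared, Foxa1 lay nearest to epithelial factors of the tract. Its profile of 4 log2 ratios to C57 vehicle (0.55, 0.93, 1.05 and 1.97) differed from the median of 11 tract epithelium factors, among them Pax2, Pax8 and Ehf, by 0.93 log2 units, from the median of 3 prostate and coagulating gland markers by 1.08, from that of the 15 other liver factors by 3.27 and from the secretory median by 6.88. The tract median stayed near 0 in these ratios (-0.28, 0.29, 0.56 and 0.52), while the medians of both liver lists were at -2.10 or lower outside C57 DEHP. A gene with little change would therefore also lie nearer to the tract factors, so this order shows no likeness to them. Pax8, a factor of duct epithelia, had 837, 533, 955, 2005 and 2230 counts. The tract factors did not share the direction of Foxa1 in either comparison of DEHP with vehicle. In C57BL/6J their median log2 ratio was -0.29, with 8 of 10 below 0, where Foxa1 had 0.55, and the median was -0.13 in FVB DEHP against FVB vehicle, where Foxa1 had 0.92. In that comparison 8 of 8 epididymal marker genes tested were higher, with a median of 8.09, and their part in the Foxa1 value was not tested. The choice of this measure was made after values were seen.

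Foxa2 lay closest to the germ cell markers Prm1, Prm2, Tnp1, Tnp2, Odf1 and Akap4 (0.72 log2 units). Stroma (0.75), blood (0.80) and the other liver factors (1.00) were close behind, and the secretory genes lay at 4.53. A gene with a small decline would lie near each of the nearer lists, so this order shows no likeness to germ cells. The germ cell markers, which check the label of sperm, were detected in all conditions and summed to 47189, 37929, 17380, 4936 and 6209 counts, so that all 6 were lower by 2 log2 units in FVB vehicle than in C57 vehicle (median -2.76). Seminal vesicle markers summed to 235894 counts in C57 vehicle and 693 in C57 DEHP, with 7 of 7 lower, between conditions in which none of the 9 factors was called. The part of these cells and glands in the results for the 9 factors was not tested. Of the other organs that express some of the 9, several defining markers were near 0, with Umod and Slc34a1 of the kidney at most 2.83 counts, Ins2, Ptf1a and Pdx1 of the pancreas at most 0.787, and Cdx2 of the gut at most 1.49. Among 6 kidney markers, 3 to 5 were at or under 3 counts in each group, and the others included Lrp2, which epididymal epithelium also makes (10385 to 19806 counts), and Aqp2 (2.84, 2.56, 8.39, 1181 and 424 counts). Of 6 pancreas markers 3 to 5, and of 6 gut markers 2 to 3, were at or under 3 counts. Gut Lgals4 had 26.5 to 40.7 counts, Vil1 6.40 to 17.3 and Muc2 8.21 to 15.8, each lowest in C57 DEHP, and pancreatic Cela1 had 10.4 to 24.6. Prss2 and Cpa1 of the pancreas had 7.34 and 6.44 counts in C57 vehicle and at most 1.76 elsewhere. Fabp2, a fatty acid carrier of the gut that liver also expresses, had 181, 71.1, 7.70, 1.13 and 2.04 counts.

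**Figure D4:**
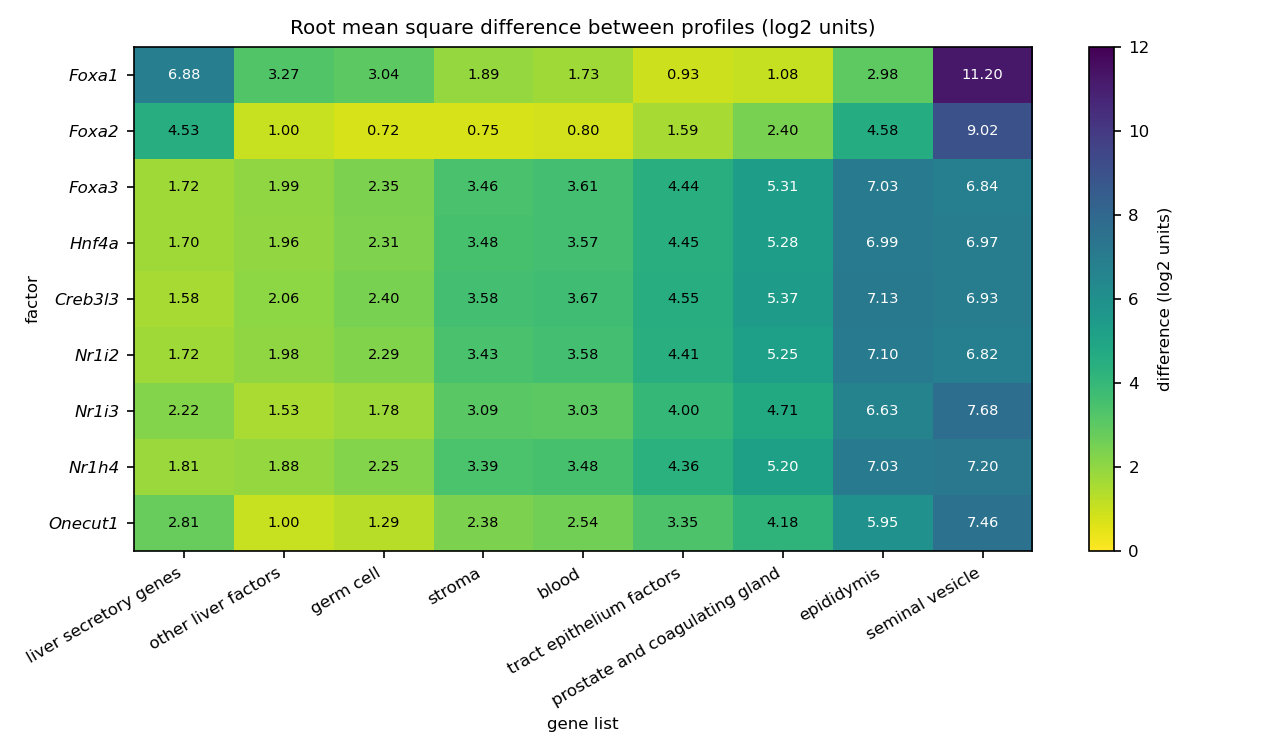
Root mean square difference (log2 units, colour scale and printed numbers) between the profile of each factor (rows) and the median profile of each gene list (columns), over the 4 ratios to C57 vehicle. Foxa1 is nearest to the tract epithelium factors (0.93) and Foxa2 to the germ cell markers (0.72), while Foxa3, Hnf4a, Creb3l3, Nr1i2 and Nr1h4 are nearest to the secretory genes.

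Over all 13622 genes with at least 50 counts in some condition, the genes nearest to Hnf4a by centred log2 profile were Serpina11, Nlrp6, Apoc2, Creb3l3 and Urad, at 0.08 to 0.13 log2 units. Among the 5 nearest to Foxa3 were Xkr9, Gcgr, Urad and Hnf4a, at 0.17 to 0.22. Gcgr, the glucagon receptor, had 545, 356, 19.0, 16.3 and 13.0 counts. Those nearest to Foxa1 were the small nucleolar RNAs Snord8 and Snora70 and the genes Tcf24, Cited2 and Nwd1, at 0.11 to 0.13, and among these Cited2, a transcriptional co-regulator, had 92.7, 143, 149, 192 and 333 counts. Foxa2 was nearest to Morn2, 6820408C15Rik, 1700051A21Rik, C1qtnf4 and Dand5, at 0.09 to 0.11. Hnf4a and Foxa3 thus each had another of the 9 among their 5 nearest genes, while Foxa1 and Foxa2 had none.

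The other factors with a role in liver divided into those with and those without the split. Of 15 such genes, 8 were lower by 2 log2 units in the C57 second generation than in C57 vehicle (median -2.10) and 11 in FVB vehicle than in C57 vehicle (median -2.62). Onecut2, the relative of Onecut1, had 392, 371, 28.8, 18.9 and 18.2 counts. Ppara, the fatty acid sensor, had 607, 789, 84.5, 67.3 and 50.5 counts. Tbx3, Xbp1 and Rxra were among those in none of the calls. Rxra, the partner of the nuclear receptors studied here, had 920, 951, 506, 510 and 483.

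**Figure D5:**
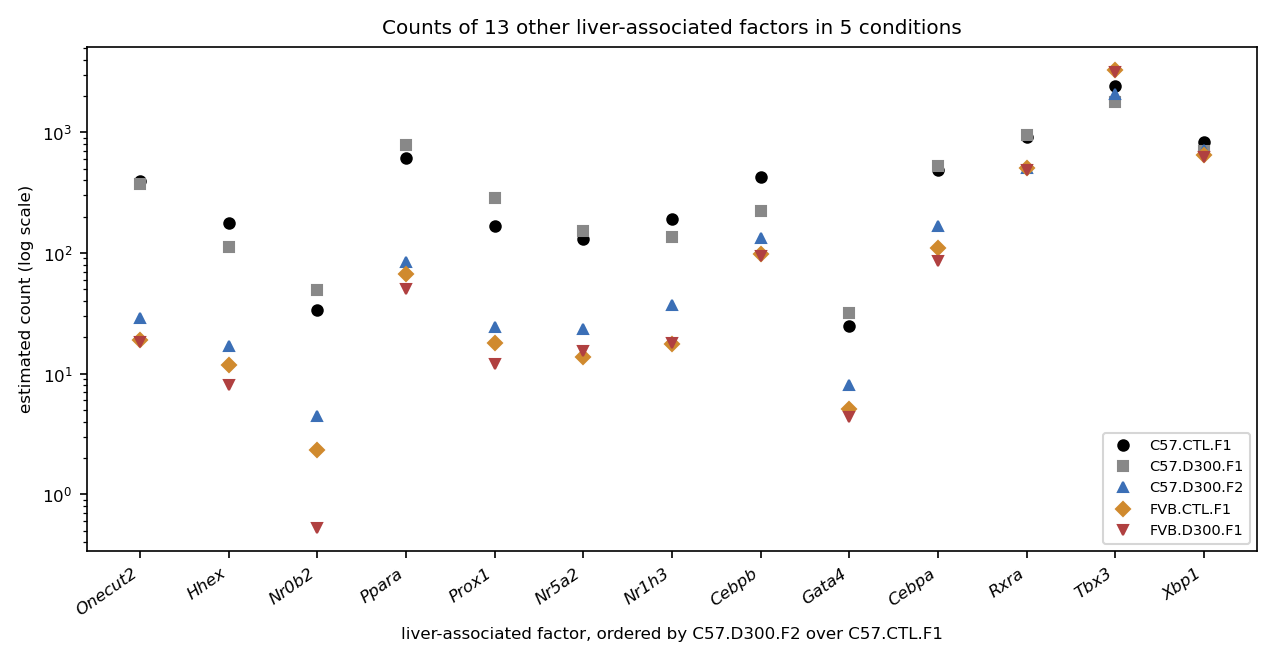
Estimated counts (log axis) of 13 of the 15 other factors with a role in liver, 1 symbol per condition, ordered by the ratio of the C57 second generation to C57 vehicle. The 2 symbols of the C57BL/6J first generation stand clear of the others for Onecut2, Hhex and Ppara and overlap with them for Tbx3 and Xbp1.

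Known targets were examined for HNF4A, PXR, CAR, FXR and CREB3L3 only. In the C57 second generation against C57 vehicle, 8 of 8 HNF4A targets (median -4.97), 7 of 7 tested targets of PXR and CAR (median -4.84), 5 of 5 tested targets of FXR (median -5.29) and 5 of 6 tested targets of CREB3L3 (median -4.76) were lower by 2 log2 units. Of all genes tested, 3.61% were lower. Cyp3a11, the main drug-metabolizing target of PXR, had 13468, 6338, 133, 35.5 and 25.6 counts, and Abcb11, the bile salt export pump under FXR, had 2040, 1372, 47.0, 18.4 and 8.73. Otc, a urea cycle enzyme, had 866, 618, 17.7, 4.54 and 4.20. The exception was Cidec, a lipid droplet protein under CREB3L3 that adipose tissue also expresses, with 99.3, 79.2, 138, 51.8 and 41.7 counts. Targets with fewer than 10 counts in both conditions were not tested and could not be called lower. They were Cyp2b10 of PXR and CAR (1.15, 1.69, 0.988, 3.04 and 1.85 counts) and Slc51a of FXR (1.32, 5.85, 4.37, 4.14 and 4.71). Slc51b of FXR (3.97, 0.685, 0.886, 0 and 0) and Fgf21 of CREB3L3 (4.14, 4.78, 3.55, 2.48 and 6.27) were the others. These lists share genes with one another and with the secretory list, and some of their genes were known to be low when they were drawn up.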

How the data were processed

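Sperm RNA of 25 mice in 5 conditions was read by all-RNA-seq. The authors called bases with CASAVA 1.8.2, clipped the adapter, mapped reads to mm10 with TopHat and a strand option, and quantified genes with Cuffdiff. The options and release of the gene models are not given in the sources used here. Each deposited value is a signal: an estimated count of a gene in a condition, pooled over 5 libraries, on Cuffdiff's common scale and without division by gene length. The variance of the count under the model was deposited beside it. There was no other per-sample column. Per the labels, 10 libraries were re-analysed. For 71 genes with a failed estimate in at least 1 condition the failed values were treated as missing.

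From these, log2 ratios of count + 1 were computed where either condition had 10 counts or more, and called at 2 log2 units. Lists were described by counts and medians. No replicate test could be made on pooled values. Counts per kb used the union of GENCODE M21 exons, and gene coordinates are from GENCODE M21. Named genes are the 9 factors, the genes of each list with the most counts or with a call unlike the list's median, the 5 genes nearest in profile to Foxa1, Foxa2, Foxa3 and Hnf4a among genes with at least 50 counts, and overlapping genes. Other list genes were named after their values were seen, and some genes are not reported here. The factors and lists were chosen with earlier results of these data known. Alternatives were pseudocounts of 0.1 and 10, 3 scalings, values under 3 counts set to 3, a minimum of 100 counts or no minimum, calls at 1 log2 unit, the model SD as a further limit, and the secretory genes outside the study's list. The procedure was tested on simulated data. Promoters are RefSeq sequences of GRCm38.p6, searched over 250 bases before the start on both strands, and all 9 factors matched by symbol, with 13 promoters. Python 3.11.15, numpy 2.4.6, pandas 2.3.3 and matplotlib 3.10.9 were used.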

Additional observations from a re-analysis of the deposited data

How the results depend on the processing

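No called value changed sign under the alternatives, but counts of calls changed. With 10 counts added, the secretory median became -6.19 in FVB vehicle against C57 vehicle and -6.06 in FVB DEHP against C57 DEHP, and with the genes outside the study's list alone it became -6.26 and -6.10. With a threshold of 1 log2 unit, 1 factor (Onecut1) was lower in C57 DEHP than in C57 vehicle, 1 (Foxa1) was higher in FVB vehicle than in C57 vehicle and 1 (Foxa1) in FVB DEHP than in C57 DEHP, the lower factors numbered 8 in FVB vehicle against C57 vehicle (Foxa2 joining with -1.77) and 7 in the C57 second generation against C57 DEHP (Onecut1 joining), and 0 factors followed the secretory genes in all 7 comparisons, because the secretory median then counted as lower in FVB vehicle against the C57 second generation. With a minimum of 100 counts the lower factors numbered 4 in the C57 second generation against C57 vehicle, 3 against C57 DEHP, 4 in FVB vehicle against C57 vehicle and 3 in FVB DEHP against C57 DEHP, since fewer factors were then compared, and the secretory median in FVB DEHP against FVB vehicle became -0.10 in place of -0.32. With 10 counts added, Nr1i3 and Onecut1 (-1.86) no longer passed 2 log2 units in the C57 second generation against C57 vehicle, which left 5 lower factors, and 6 were lower in FVB DEHP against C57 DEHP. Scaling to equal totals moved the median of all genes by up to 0.31 log2 units. Among the ratios of the factors between conditions it turned the sign of 1 uncalled value, that of Foxa1 in FVB vehicle against the C57 second generation. For Hnf4a it also turned the difference between the responses of both strains to DEHP, from 0.14 to -0.13. No paired analysis was possible because the columns give 1 value per condition, and for the same reason replicates were not left out in turn. Counts of 3 or fewer limit what can be said of Foxa3, Nr1i2, Nr1i3 and Onecut1 in FVB/N.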
